A study of Mus musculus with 2 samples.

Results

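The 10 genes described here make up a short chain of fibroblast growth factor (FGF) signalling in the lung. They are the ligands Fgf7 and Fgf10, the receptors Fgfr1 and Fgfr2, the transcription factors Etv4 and Etv5, and the feedback inhibitors Spry1, Spry2, Spry4 and Dusp6. They were chosen by symbol, and all 10 were among the 31053 genes listed for both libraries. The samples were 2 single-cell RNA libraries of whole lung from mice aged 5 weeks, made with droplet chemistry that reads the 3' end of each transcript and counts unique molecular identifiers (UMIs), 1 UMI standing for 1 captured molecule. The Cre library came from Nkx2.1 Cre;Lkb1f/f mice, in which Cre recombinase is driven by Nkx2.1, a transcription factor gene active in lung epithelium. The control library came from Lkb1f/f mice, which carry the same floxed Lkb1 alleles without Cre. Each library pooled the cells of 3 mice, so there was 1 library per genotype, no spread between animals could be measured, and no difference below has a test. Intervals are 95% and cover counting error only.

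FGF7 and FGF10 are secreted by mesenchymal cells and bind the epithelial splice form of FGFR2, while FGFR1 serves mainly mesenchymal cells. The bound receptor signals through RAS and the ERK kinases and raises transcription of ETS factors such as Etv4 and Etv5. The same signal raises Sprouty proteins, which dampen RAS activation, and DUSP6, a phosphatase that inactivates ERK. In the developing lung FGF10 drives branching of the epithelial tips, and in the adult the pathway is known for maintaining alveolar type 2 (AT2) cells, which make surfactant and renew the alveolar epithelium. Sprouty genes and Dusp6 also answer other receptors that use ERK.

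After filtering, the Cre library held 14712 cells and 74752644 UMIs, and the control library 12448 cells and 68977184 UMIs, at medians of 3251 and 3611 UMIs per cell. Cells were placed in classes by marker genes that include none of the 10, and each class is named by what its markers resemble. In total, 22 classes had 50 or more cells in each library, and an order of levels below is among these 22. The AT2-like class held 1817 Cre and 1481 control cells at medians of 7981 and 10245 UMIs, and carried all 8 of its markers in both libraries. Levels are given as CPM, the UMIs of a gene per 1000000 UMIs of the class. Stk11, the gene that encodes LKB1, was lower in AT2-like cells of the Cre library, at 29.8 CPM against 49.4 CPM in control (ratio 0.603, 0.534 to 0.680), and in AT1-like cells, at 42.8 against 75.3 CPM (ratio 0.568, 0.336 to 0.973). In club-like cells the Stk11 ratio was 1.13 (0.843 to 1.52), from 94 Cre and 96 control UMIs. That is 0.716 of the median ratio of all genes in that class, 1.58, and was not called by the rule below. The labels do not give where the floxed exons lie relative to the 3' tags, so these UMIs do not measure the deletion itself. The libraries shared 68 barcode sequences. With no test to be had, a gene was compared in a class where it had 50 or more UMIs over both libraries, which is called tested below, and was called higher or lower where its ratio lay 1.5-fold or more from the median ratio of all such genes in the class.

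The genes separated by lineage in both libraries. Cells whose leading markers were mesenchymal made up 14.2% of Cre and 11.4% of control cells and held 85.6% and 85.7% of all Fgf7 UMIs, and 87.0% and 82.9% of Fgf10 UMIs. Epithelial cells held 88.9% of Fgfr2 UMIs in the Cre library and 93.1% in control, and 91.3% and 95.4% of Etv5 UMIs. The feedback genes were spread more widely. Immune cells held 48.9% of Dusp6 UMIs in the Cre library and 56.1% in control. Endothelial cells held 25.0% of Spry4 UMIs in the Cre library and 45.6% in control, and mesenchymal cells 48.9% and 25.9%. These shares follow the number of captured cells of each kind as well as the level per cell.

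**Figure D1:**
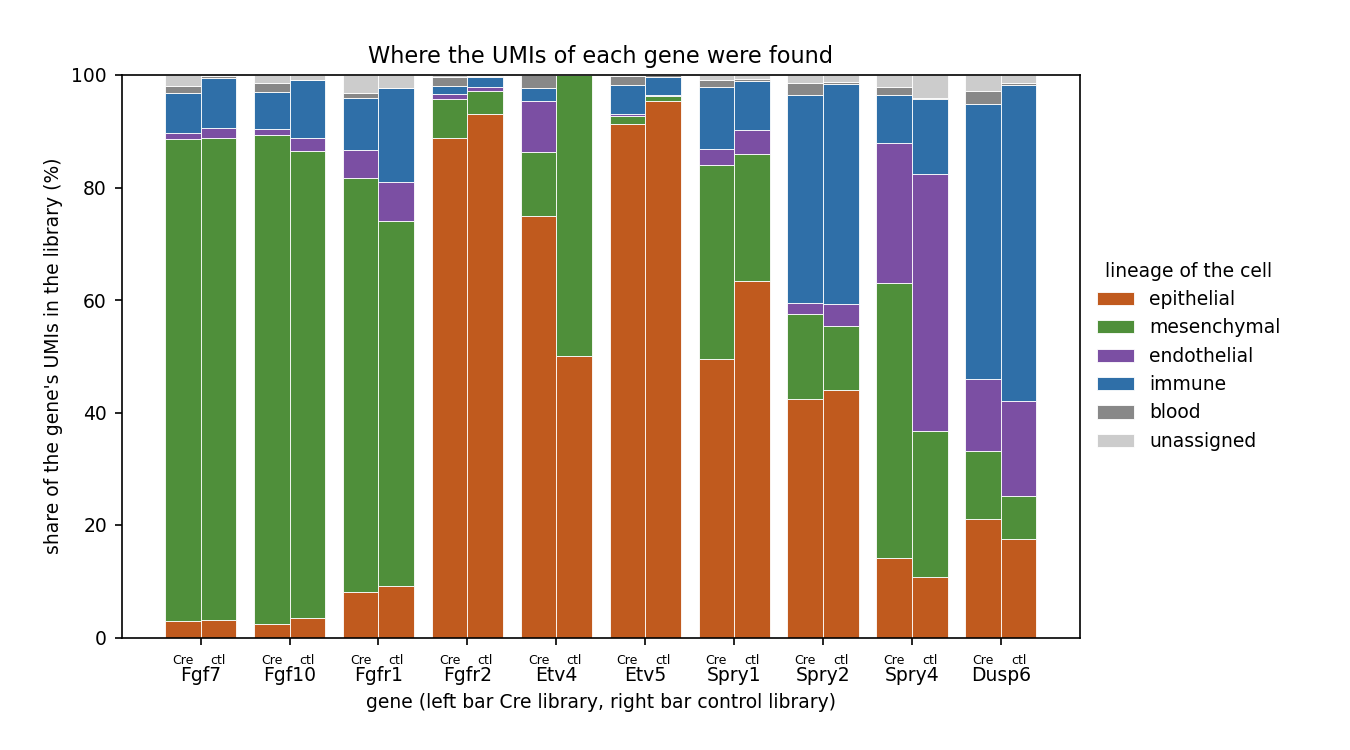
Share of each gene's UMIs (y axis, %) found in cells of each lineage, with the Cre library as the left bar and the control library as the right bar of each gene. Fgf7 and Fgf10 lie mostly in mesenchymal cells, Fgfr2 and Etv5 mostly in epithelial cells, and the Etv4 bars rest on 44 Cre and 2 control UMIs.

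Fgf7 and Fgf10 were both highest in alveolar fibroblast-like cells among the 22 classes, with adventitial fibroblast-like cells next, in either library. In alveolar fibroblast-like cells Fgf7 stood at 127 CPM in the Cre library and 145 CPM in control (281 and 205 UMIs), a ratio of 0.876 (0.729 to 1.05). In adventitial fibroblast-like cells it stood at 80.1 CPM in Cre and 66.1 CPM in control, a ratio of 1.21 (0.978 to 1.51). Both intervals include 1, and the ratios lie on opposite sides of it. Smooth muscle-like cells followed with 4 Cre and 7 control UMIs, and in control their interval overlapped that of adventitial fibroblast-like cells. Fgf10 had 95.6 CPM in Cre alveolar fibroblast-like cells and 78.7 CPM in control (211 and 111 UMIs, ratio 1.21, 0.961 to 1.54). In adventitial fibroblast-like cells it had 42.8 CPM in Cre and 42.3 CPM in control (ratio 1.01, 0.765 to 1.34). In AT2-like cells, which carry the receptor, Fgf7 was at 1.33 CPM in Cre and 1.06 CPM in control, and Fgf10 at 0.931 and 0.565 CPM.

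Co-occurrence of the ligands in single cells was counted too. With each cell thinned to 1000 UMIs, Fgf7 was seen in 8.11% of Cre alveolar fibroblast-like cells with an Fgf10 UMI and in 10.9% of those without one. In control the shares were 14.3% and 14.6%. Only 3 cells in each library carried both, so a tendency in either direction was not detectable at this depth. Summed over all mesenchymal cells, the ligands were higher in the Cre library, Fgf7 at 78.5 against 61.7 CPM in control and Fgf10 at 51.7 against 36.7 CPM, but these sums mix classes. Alveolar fibroblast-like cells numbered 638 in Cre and 530 in control, and adventitial ones 488 and 278.

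**Figure D2:**
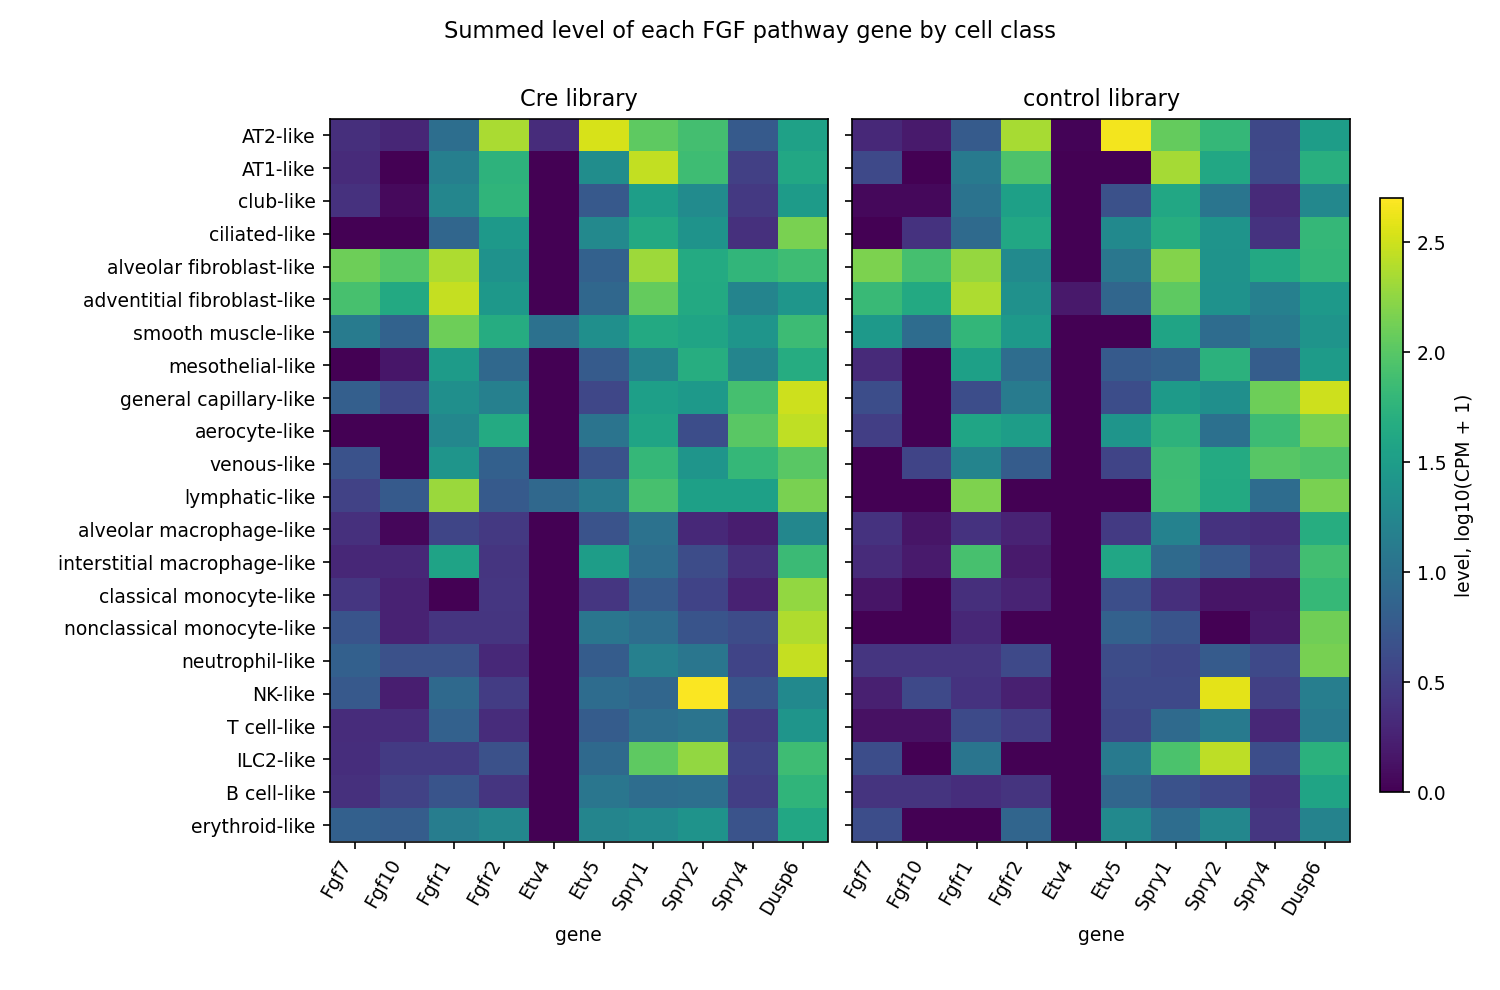
Level of each gene (columns) in each of the 22 classes (rows) as log10(CPM + 1), in the Cre library on the left and the control library on the right. In both panels Etv5 and Fgfr2 peak in AT2-like cells, Fgf7 and Fgf10 in alveolar fibroblast-like cells and Spry2 in NK-like cells, and Etv4 is near 0 in most classes.

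Fgfr1, the receptor of mesenchymal cells, was highest in adventitial fibroblast-like cells, at 291 CPM in the Cre library and 235 CPM in control (960 and 455 UMIs, ratio 1.24, 1.11 to 1.39). Alveolar fibroblast-like cells followed at 231 and 186 CPM (ratio 1.24, 1.07 to 1.44), and lymphatic endothelial-like cells at 196 and 150 CPM. The intervals of alveolar fibroblast-like and lymphatic-like cells overlap in each library, and overlap alone does not show whether these neighbours in the order differ. In smooth muscle-like cells Fgfr1 had 125 CPM in Cre from 41 UMIs and 60.5 CPM in control from 15 UMIs, a ratio of 2.06 (1.12 to 4.01). AT2-like cells had little Fgfr1, 8.51 CPM in Cre and 5.01 CPM in control (128 and 71 UMIs, ratio 1.70, 1.26 to 2.30). The ratio there was 1.25 with classes taken from clusters and 0.952 at 1000 UMIs per cell. At that depth only 11 Cre and 10 control AT2-like cells held an Fgfr1 UMI.

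Interstitial macrophage-like cells gave the lowest Fgfr1 ratio of the 8 classes tested, at 36.0 CPM in Cre and 81.7 CPM in control (111 and 142 UMIs, ratio 0.441, 0.341 to 0.570). The makeup of that class also differed between the libraries. The 7 alveolar macrophage markers summed to 15018 CPM in its Cre cells and 175 CPM in its control cells, and the 7 interstitial macrophage markers to 20146 and 35529 CPM. Of a cluster of 386 macrophages found in the Cre library alone, 30.6% fell in this class. With clusters in place of the gate the ratio was 0.620, and with each cell thinned to 1000 UMIs it was 0.817. The part of these macrophages in the difference was not tested beyond that.

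Fgfr2 was highest in AT2-like cells in both libraries. They had 226 CPM in the Cre library and 221 CPM in control, from 3403 and 3132 UMIs, and the ratio of 1.02 had an interval of 0.975 to 1.07. The median ratio of all genes in the class was 1.19, and Fgfr2 was not called. At 1000 UMIs per cell the Fgfr2 ratio was also 1.19, outside that interval. An Fgfr2 UMI was present in 73.4% of Cre and 72.9% of control AT2-like cells, and in 20.3% and 18.3% of them at 1000 UMIs per cell. In B cell-like cells, which should lack the gene, the shares at 1000 UMIs were 0.0691% in Cre and 0% in control, where 0 of 1726 cells allows a share of up to 0.174%.

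The other epithelial classes had lower levels of Fgfr2. AT1-like cells, the thin gas-exchange epithelium, had 54.0 CPM in Cre from 48 UMIs and 86.9 CPM in control from 30 UMIs (ratio 0.621, 0.386 to 1.02). Club-like cells, which secrete into the airway, had 57.5 CPM in Cre and 33.1 CPM in control (ratio 1.74, 1.46 to 2.08). Ciliated-like cells had 27.2 CPM in Cre and 40.8 CPM in control from 20 and 27 UMIs. The median ratio of all genes in club-like cells was itself 1.58, and the 7 club markers took 452800 CPM in Cre and 631669 CPM in control. Relative to that median Fgfr2 stood at 1.10 in club-like cells. The 3' tags do not tell the epithelial and mesenchymal splice forms of Fgfr2 apart.

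Etv5 was highest in AT2-like cells in both libraries. It stood there at 340 CPM in the Cre library and 444 CPM in control (5110 and 6286 UMIs), 11.1 and 11.5 times the level in interstitial macrophage-like cells, the next class. The ratio was 0.766 (0.738 to 0.795), which is 0.644 of the median ratio of all genes in the class, 1.19. Fewer cells also carried it: at 1000 UMIs per cell, Etv5 was seen in 28.2% of Cre cells (26.1% to 30.4%) and 33.8% of control cells (31.3% to 36.4%), against 1.24% and 0.869% of B cell-like cells. Over all UMIs the shares were 83.4% in Cre and 86.6% in control. At 1000 UMIs per cell the CPM ratio was 0.795, and its size relative to the median of all genes then missed the 1.5-fold limit used for calls. It also missed that limit when read against a ratio of 1 in place of the median, and missed a 2-fold limit.

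Markers of AT2 and of other cells also differed between the libraries in these cells. The 8 AT2 markers summed to 197001 CPM in Cre AT2-like cells and 270688 CPM in control, and only 1 of the 8 was higher in Cre. All 5 erythroid markers were higher in Cre, with sums of 783 and 111 CPM, and the 7 alveolar macrophage markers summed to 473 and 44.8 CPM, with 5 of 7 higher. The 7 interstitial macrophage markers summed to 137 CPM in Cre and 589 CPM in control, although 6 of the 7 were higher in Cre. No marker of these lists was at 0 in either library. The part of these differences in the Etv5 ratio was not tested.

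Outside AT2-like cells Etv5 was low. Interstitial macrophage-like cells had 30.5 CPM in Cre and 38.5 CPM in control (94 and 67 UMIs, ratio 0.792, 0.573 to 1.10). AT1-like cells had 18 UMIs in the Cre library, or 20.3 CPM (12.0 to 32.0), and 0 in control. A count of 0 allows a control level of up to 8.69 CPM. The Cre level was 2.33 times that limit, a figure that leaves out the counting error of the 18 UMIs. The AT1-like cells of the Cre library also held more AT2 transcripts, with the 8 AT2 markers at 5713 CPM in Cre and 2703 CPM in control and 7 of 8 higher, and the part of these in the Etv5 UMIs was not tested.

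Etv4, the partner ETS factor that is strong in the distal tips of the embryonic lung, had few UMIs. All kept cells of the Cre library held 44 Etv4 UMIs and those of the control library 2. AT2-like cells held 18 UMIs in Cre and 1 in control, a CPM ratio of 17.0 with an interval of 2.68 to 706. Those 18 UMIs lay in 18 cells, which is 0.991% of the Cre AT2-like cells, and no cell kept an Etv4 UMI at 1000 UMIs in either library. A further 8 Cre UMIs came from only 16 neuroendocrine-like cells, a class too small to compare. Smooth muscle-like and lymphatic-like cells of the Cre library had 9.13 and 7.18 CPM, from 3 UMIs each, above the level in AT2-like cells. Of the 18 AT2-like cells with Etv4, 10 (55.6%) also had a UMI of Sox9, a transcription factor of embryonic distal lung tips, against 46.2% of all Cre AT2-like cells.

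**Figure D3:**
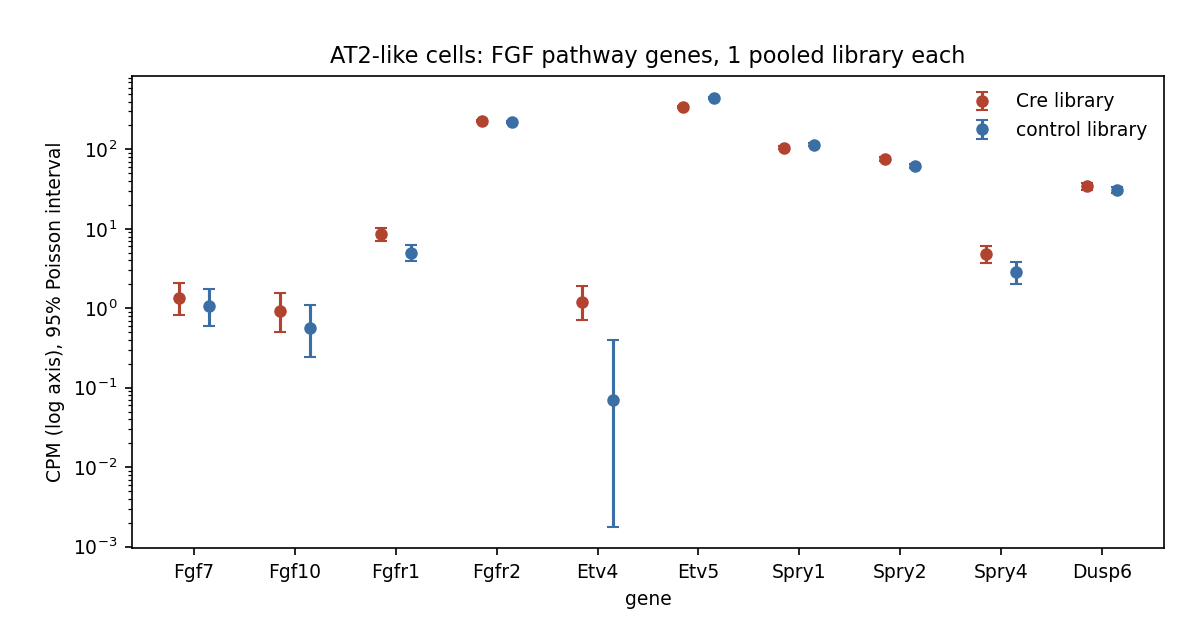
Level of each gene in AT2-like cells (y axis, CPM on a log scale) in the Cre library, left point, and the control library, right point, with 95% Poisson intervals that cover counting error only. The intervals of Fgfr2, Spry1 and Dusp6 overlap between the libraries. Spry2 is at 76.3 CPM in Cre and 61.5 CPM in control, Etv5 is at 340 and 444 CPM, and Etv4 rests on 18 Cre UMIs and 1 control UMI.

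The stretches before the RefSeq starts of 3 of these genes are shown because Etv5, Dusp6 and Spry2 carry the ETS factor and feedback results. ETS factors bind sites around GGAA, of which the longer form GGAAG was searched. Windows of 250 bases upstream were taken from RefSeq on GRCm38.p6, and 7 of the 10 genes had one. Capitals mark GGAAG or its reverse complement CTTCC, and GGAA followed by another base is not marked or counted. Etv5 had 2 windows, and the one shown lies inside the gene, before an internal start.
Etv5, chr16:22438369-22438618, minus strand: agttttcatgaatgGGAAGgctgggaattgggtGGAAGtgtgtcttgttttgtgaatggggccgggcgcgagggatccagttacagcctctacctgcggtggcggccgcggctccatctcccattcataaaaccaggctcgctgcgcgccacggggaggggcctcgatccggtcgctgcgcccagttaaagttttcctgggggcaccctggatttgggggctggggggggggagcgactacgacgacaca
Dusp6, chr10:99262981-99263230, plus strand: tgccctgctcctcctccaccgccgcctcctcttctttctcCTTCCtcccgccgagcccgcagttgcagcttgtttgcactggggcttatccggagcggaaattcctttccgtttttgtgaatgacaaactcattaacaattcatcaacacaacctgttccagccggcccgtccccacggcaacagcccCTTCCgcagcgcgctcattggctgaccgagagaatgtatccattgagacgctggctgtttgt
Spry2, chr14:105896820-105897069, minus strand: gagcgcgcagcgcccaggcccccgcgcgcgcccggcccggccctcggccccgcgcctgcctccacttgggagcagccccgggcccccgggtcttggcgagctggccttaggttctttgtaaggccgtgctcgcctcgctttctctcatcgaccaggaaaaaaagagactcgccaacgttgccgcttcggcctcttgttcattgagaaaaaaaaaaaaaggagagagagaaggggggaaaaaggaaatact
The Etv5 window shown holds GGAAG 2 times, the Dusp6 window holds CTTCC 2 times, and the Spry2 window holds neither of these. The other Etv5 window, at 22439571 to 22439820 on chromosome 16, has 149 bases in annotated exons, holds 0 matches and is not shown. Of the 7 genes searched, 5 had a match in at least 1 window, a count per gene in which Etv5 had 2 windows. Of 32851 single RefSeq windows of this length, searched on both strands, 64.1% had a match. The longer ETS motif CCGGAA was in 0 of the 7 and in 12.0% of all windows, and TGACG, a site read by cAMP-responsive factors, in 0 of the 7 and in 17.8%. The motifs GGAAG and CCGGAA can overlap. Etv5 lies on chromosome 16 at 22381309 to 22439719, Dusp6 on chromosome 10 at 99263231 to 99267489, and Spry2 on chromosome 14 at 105891947 to 105896819 (GRCm38).

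Among the 22 classes, Spry1 was highest in AT1-like cells, at 282 CPM in the Cre library and 214 CPM in control (251 and 74 UMIs, ratio 1.32, 1.01 to 1.73). In control the level was 48.4 CPM at 1000 UMIs per cell, a value from only 62 of the 127 cells. Depth and the choice of cells were not told apart. Among AT1-like cells with 1000 or more UMIs, thinned to that number, Spry1 was seen in 43 of 159 Cre cells (27.0%, 20.3% to 34.7%) and in 3 of 62 control cells (4.84%, 1.01% to 13.5%). Alveolar fibroblast-like cells came next, at 202 CPM in Cre and 157 CPM in control (ratio 1.29, 1.10 to 1.52). In control their interval, 137 to 179 CPM, overlapped that of AT1-like cells, 168 to 269 CPM. In AT2-like cells Spry1 stood at 105 and 115 CPM, from 1581 and 1628 UMIs, with a ratio of 0.915 (0.853 to 0.981). Club-like cells had 31.8 CPM in Cre and 40.7 CPM in control, a ratio of 0.782 (0.642 to 0.949) that is 0.494 of that class's median ratio.

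Spry2 was highest in NK-like and ILC2-like cells, while T cell-like and B cell-like cells had under 12 CPM. NK-like cells had 479 CPM in Cre and 383 CPM in control (709 and 519 UMIs, ratio 1.25, 1.12 to 1.40), and 39.9% of Cre and 31.3% of control NK-like cells carried it at 1000 UMIs. ILC2-like cells, the innate lymphoid cells of type 2 immunity, came second at 183 CPM in Cre and 267 CPM in control, and the ratio of 0.684 (0.562 to 0.835) ran the opposite way. AT2-like cells had 76.3 and 61.5 CPM (ratio 1.24, 1.13 to 1.36), close to the median of all genes in the class.

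Spry2 was called higher in both fibroblast classes, whose makeup differed between the libraries. With a wider lead over the next class required, 322 of 638 Cre and 362 of 530 control alveolar fibroblast-like cells stayed in their class. Those near the limit of assignment were 8.31% in Cre and 3.58% in control, and the medians were 2456.5 and 1353.5 UMIs. Of adventitial fibroblast-like cells 61.7% in Cre and 76.6% in control kept that name in clusters. The part of this in the Spry2 ratios was not tested. Alveolar fibroblast-like cells had 43.5 CPM in Cre and 23.4 CPM in control (96 and 33 UMIs, ratio 1.86, 1.24 to 2.85). Adventitial fibroblast-like cells had 42.2 and 22.7 CPM (139 and 44 UMIs, ratio 1.86, 1.31 to 2.67). At 1000 UMIs the shares of cells with Spry2 had overlapping intervals, 3.55% (2.04% to 5.70%) in Cre and 2.13% (0.860% to 4.33%) in control alveolar fibroblast-like cells. AT1-like cells had 72.0 CPM in Cre from 64 UMIs and 40.6 CPM in control from 14 UMIs (ratio 1.78, 0.985 to 3.43).

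Spry4 was highest in endothelial classes. The order of its levels differed between the libraries, with aerocyte-like cells, the large gas-exchange capillary cells, first in Cre and behind general capillary-like and venous-like cells in control (30 and 32 UMIs, ratio 1.42, 0.831 to 2.41). General capillary-like cells had 79.8 CPM in Cre and 127 CPM in control (57 and 114 UMIs, ratio 0.629, 0.450 to 0.872), and venous-like cells 62.1 and 98.1 CPM (ratio 0.634, 0.385 to 1.04). With at most 10% mitochondrial UMIs the general capillary ratio was 0.783, and at 1000 UMIs per cell 0.836. Neighbours among the first 4 classes of each order overlap in their intervals. Alveolar fibroblast-like cells had 58.4 CPM in Cre and 41.1 CPM in control (ratio 1.42, 1.03 to 1.97), and AT2-like cells 4.79 and 2.82 CPM (72 and 40 UMIs).

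Dusp6, the ERK phosphatase, was called in the most classes, 7 higher and 1 lower, but was also tested in the most, 20. Spry2 was called higher in 5 and lower in 2 of only 12 classes tested. General capillary-like cells were highest in each library and nearly equal, at 308 CPM in Cre and 310 CPM in control (220 and 279 UMIs, ratio 0.992, 0.828 to 1.19). In the Cre library their interval overlapped that of neutrophil-like cells. Myeloid blood cells were higher in Cre. Neutrophil-like cells had 288 CPM in Cre and 140 CPM in control (556 and 857 UMIs, ratio 2.05, 1.84 to 2.29). Classical monocyte-like cells had 181 and 64.1 CPM (220 and 149 UMIs, ratio 2.82, 2.28 to 3.50), and nonclassical monocyte-like cells 236 and 131 CPM (ratio 1.80, 1.52 to 2.14). Immediate early genes, which rise during tissue dissociation and also follow ERK, were counted beside them. Of 18 such genes, 3 were higher and 2 lower in classical monocyte-like cells and 2 higher and 1 lower in neutrophil-like cells.

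Alveolar macrophage-like cells went the other way, with Dusp6 at 16.9 CPM in Cre and 47.1 CPM in control (158 and 225 UMIs, ratio 0.359, 0.291 to 0.442). The assignment of this class was less clear in the Cre library. With a wider lead over the next class required, 563 of its 916 Cre cells and 468 of its 502 control cells stayed in it. Cells near the limit of assignment were 5.35% in Cre and 0.398% in control. The part of this difference in the Dusp6 ratio was not tested. In the same class 1 of the 18 immediate early genes was higher and 11 lower in Cre, and the part of dissociation in the Dusp6 ratio was not tested. Dusp6 was also called higher in aerocyte-like and ciliated-like cells. Aerocyte-like cells had 273 CPM in Cre and 143 CPM in control (82 and 65 UMIs, ratio 1.91, 1.36 to 2.68), with 1 immediate early gene higher and 12 lower. Ciliated-like cells had 144 and 62.0 CPM (106 and 41 UMIs, ratio 2.33, 1.61 to 3.42), with 0 higher and 15 lower. Dusp6 was called higher in nonclassical monocyte-like cells too, with 2 immediate early genes higher and 3 lower. The same held in T cell-like cells, with 4 higher and 0 lower, and in mesothelial-like cells, with 0 higher and 5 lower. The part of dissociation in these ratios was not tested. In AT2-like cells Dusp6 was at 34.1 CPM in Cre and 30.9 CPM in control (513 and 437 UMIs, ratio 1.11, 0.971 to 1.26).

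Lower levels in other classes gave further calls. Mesothelial-like cells, which line the lung surface, had Dusp6 at 46.3 CPM in Cre and 29.1 CPM in control (ratio 1.59, 1.18 to 2.17) and Spry1 at 15.3 and 5.96 CPM (34 and 16 UMIs, ratio 2.56, 1.38 to 4.97). T cell-like cells had Dusp6 at 24.6 CPM in Cre and 12.0 CPM in control (101 and 72 UMIs, ratio 2.05). B cell-like cells had Spry1 at 8.14 and 3.75 CPM and Spry2 at 8.68 and 2.97 CPM, each from 32 UMIs or fewer per library. Neutrophil-like cells had Spry2 at 10.4 CPM in Cre and 4.91 CPM in control (20 and 30 UMIs).

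The calls can be counted per class. In AT2-like cells 7 of the 10 genes could be tested, and 1 was called, Etv5, as lower. Of all 11302 genes tested there 18% were called, 9.77% higher and 8.26% lower, so 1 of 7 is near the background. Fgf7, Fgf10 and Etv4 had too few UMIs there.

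Over the 22 classes there were 72 values with enough UMIs, of which 15 were called higher and 9 lower. Dusp6 accounted for 7 higher calls and 1 lower call in 20 classes, and Spry2 for 5 higher and 2 lower in 12. The share of all genes called in either direction was 18.5% in neutrophil-like, 14.8% in classical monocyte-like, 13.5% in nonclassical monocyte-like, 16.7% in aerocyte-like, 16.8% in ciliated-like and 16.4% in alveolar macrophage-like cells. In alveolar fibroblast-like cells 1 of 8 genes tested was called, against 21% of all genes, and in adventitial fibroblast-like cells 1 of 8, against 17.5%. In AT1-like cells Spry2 was called higher and Fgfr2 lower among 4 tested, against 23.1%. The remaining calls were Spry1 lower in club-like cells (21.3%), Fgfr1 higher in smooth muscle-like (29.2%) and lower in interstitial macrophage-like cells (26.5%), Spry1 and Dusp6 higher in mesothelial-like cells (10.9%), Spry1 and Spry2 higher in B cell-like cells (11.1%), Spry2 higher in neutrophil-like cells and lower in ILC2-like cells (23.9%), Dusp6 higher in T cell-like cells (14.6%), and Spry4 lower in general capillary-like (14.6%) and venous-like cells (19.4%). Spry2 in erythroid-like cells had 23.2 CPM in Cre and 16.7 CPM in control (ratio 1.39, 0.695 to 3.08), and was called lower only against a median log2 ratio of 1.07 in that class, where 45% of all genes were called. None was called in lymphatic-like (19.9%) or NK-like cells (13.9%).

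**Figure D4:**
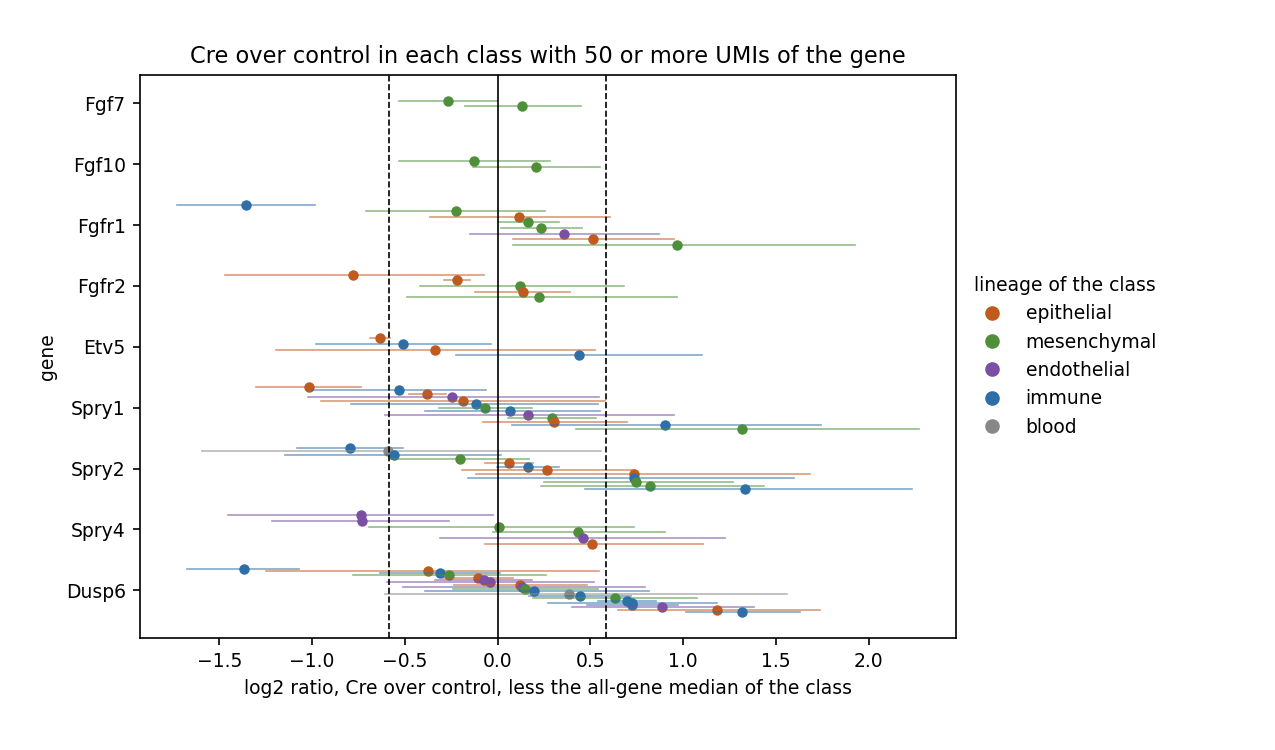
Each point is 1 class in which a gene had 50 or more UMIs, placed by the log2 ratio of Cre over control less the median log2 ratio of all genes in that class (x axis), with the 95% interval of the ratio as a line and the lineage as colour. The dashed lines mark 1.5-fold, and Dusp6 has points beyond both lines, with classical monocyte-like cells farthest to the right and alveolar macrophage-like cells farthest to the left.

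The rest of the pathway was read from lists of 82 genes, of which 52 had enough UMIs in AT2-like cells. There 6 were called higher and 2 lower, and their median log2 ratio, relative to all genes, was 0.02. None of the 21 adaptors and RAS to ERK kinases tested was called, with a relative median of -0.01 on the log2 scale, beside 18% of all genes. Other ERK targets and feedback genes had 4 of 15 called higher and 0 lower, with a relative median of 0.32. Receptors and cofactors had 2 called each way of 14, and neither of the other FGF ligands tested was called. Immediate early genes had a relative median of 0.38 there, with 3 of 18 higher and 0 lower, and their part in the ERK target list was not tested.

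The named genes of these lists lay on both sides. Phlda1, a growth factor inducible gene, had 784 CPM in Cre AT2-like cells and 198 CPM in control (ratio 3.97, 3.81 to 4.14). Ccnd1, which encodes cyclin D1, had 372 and 157 CPM (ratio 2.37, 2.25 to 2.49). Flrt3, a membrane protein that binds FGF receptors, had 30.8 and 9.18 CPM (ratio 3.35, 2.76 to 4.11), and Gpc3, a heparan sulphate proteoglycan, had 30.4 and 16.3 CPM (ratio 1.86, 1.59 to 2.19). Fgfbp1, a secreted carrier that releases FGFs from the matrix, had 14.5 CPM in Cre and 34.0 CPM in control (ratio 0.426, 0.361 to 0.501). The other genes called there were under the 20 CPM asked of named genes and were picked out after their values were seen. They were Dusp4, an ERK phosphatase like Dusp6, at 8.98 CPM in Cre and 4.94 CPM in control, Fosl1, an ERK-responsive AP-1 gene, at 4.92 and 0.918 CPM, and Gpc4, at 5.78 and 7.41 CPM, as lower. The 3 immediate early genes called were Nr4a1, Hspa1a and Hspa1b.

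**Figure D5:**
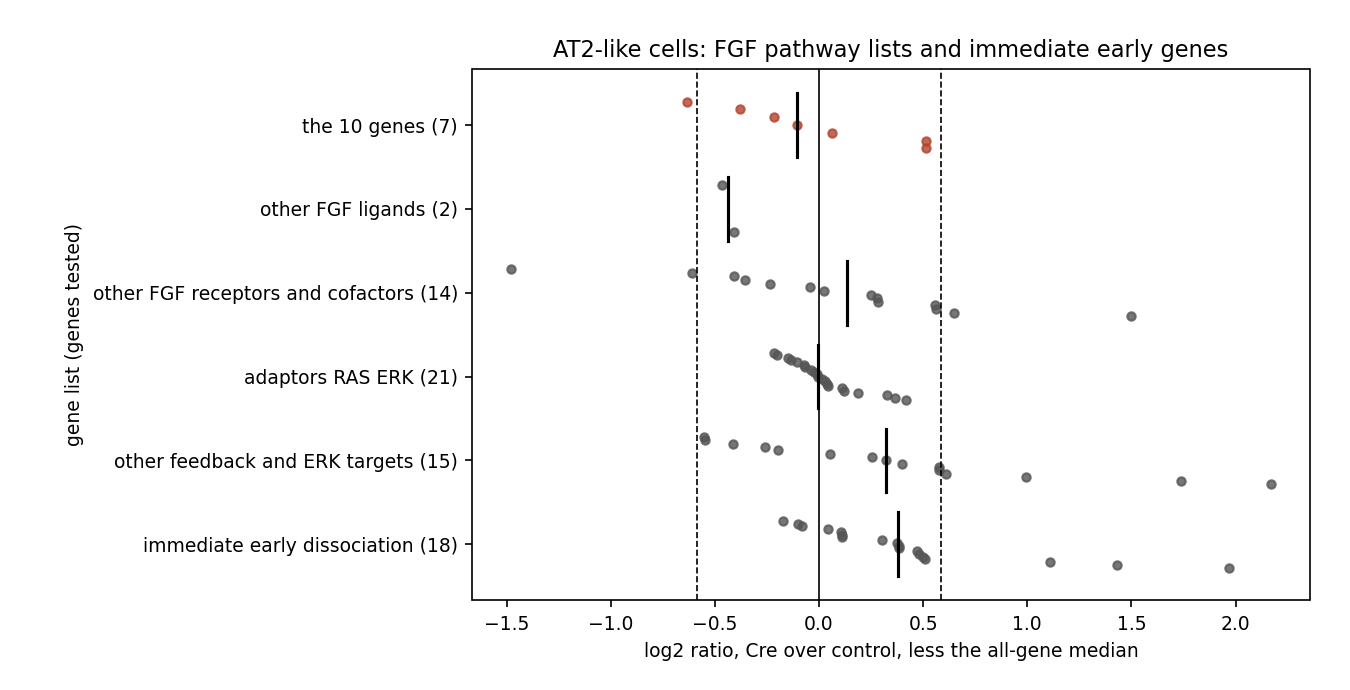
Log2 ratio of Cre over control in AT2-like cells less the median of all genes (x axis) for each tested gene of the 10 (red) and of the other lists (grey), with list medians as black bars and 1.5-fold as dashed lines. The adaptors and kinases lie close to 0, while Phlda1 at a ratio of 3.97 and Fgfbp1 at 0.426 are among the genes beyond the lines.

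Other classes gave other named genes. AT1-like cells had Phlda1 at 341 CPM in Cre and 63.7 CPM in control (ratio 5.35, 3.47 to 8.66), Errfi1, an inhibitor of the EGF receptor, at 250 and 104 CPM, and Spred1, a Sprouty-related inhibitor, at 119 and 46.4 CPM. Ier3 was lower there, at 953 CPM in Cre and 1591 CPM in control (ratio 0.599, 0.537 to 0.668), as was Araf, a RAF kinase, at 40.5 and 72.4 CPM. In all, 7 of the 27 list genes tested in AT1-like cells were called higher and 2 lower, beside 23.1% of all genes in either direction, and 8 of 17 immediate early genes were higher and 1 lower.

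Club-like cells had Etv1, another factor of the Etv4 and Etv5 family, at 21.2 CPM in Cre and 3.11 CPM in control (118 and 20 UMIs, ratio 6.83, 4.23 to 11.6). They also had Sdc4, a heparan sulphate proteoglycan, at 695 and 197 CPM and Phlda1 at 700.0 and 234 CPM, and Fgfbp1 at 99.9 and 126 CPM. Of 44 list genes tested in club-like cells, 8 were called higher and 4 lower, beside 21.3% of all genes in either direction. Alveolar fibroblast-like cells ran the opposite way for Etv1, at 35.3 CPM in Cre and 73.7 CPM in control (78 and 104 UMIs, ratio 0.479, 0.353 to 0.649), and had Errfi1 at 482 and 133 CPM, Sdc4 at 505 and 291 CPM and Ksr1, an ERK pathway scaffold, at 58.4 and 24.1 CPM. There 10 of 42 list genes were called higher and 1 lower, beside 21% of all genes in either direction.

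Sox9 was seen in 14.7% of Cre AT2-like cells and in 0 of 1382 control cells at 1000 UMIs per cell, which allows a share of up to 0.217% in control. Within the Cre library the 10 genes were set side by side in AT2-like cells with and without a Sox9 UMI. At 1000 UMIs per cell there were 256 cells with and 1486 without. Over all UMIs 840 of 1817 cells had a Sox9 UMI, so the 1486 include cells whose Sox9 UMIs were lost in thinning. Etv5 stood at 340 CPM with Sox9 and 347 CPM without (ratio 0.981, 0.772 to 1.23), Fgfr2 at 254 and 239 CPM, Spry1 at 105 and 119 CPM, Spry2 at 85.9 and 75.4 CPM, and Dusp6 at 27.3 and 35.0 CPM. All of these intervals include 1. With the split and the sums taken over all UMIs, Fgfr2 had a ratio of 1.23 (1.14 to 1.31). Spry2 then had 0.884 (0.786 to 0.994) and Dusp6 0.639 (0.533 to 0.764), while Etv5 had 0.968 (0.916 to 1.02) and Spry1 0.940 (0.851 to 1.04). Depth differed in that split, at medians of 8549.5 UMIs with Sox9 and 7473 without.

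At 5000 UMIs per cell there were 610 cells with Sox9 and 912 without. Etv5 was then at 365 CPM with Sox9 and 359 CPM without (ratio 1.01, 0.940 to 1.10), an interval that includes 1. Fgfr2 was at 272 and 204 CPM (ratio 1.33, 1.21 to 1.46), and Dusp6 at 30.2 and 39.0 CPM (ratio 0.773, 0.594 to 0.999). Flrt3 was at 20.7 and 41.2 CPM (ratio 0.501, 0.370 to 0.670), although it was higher in Cre than in control over all AT2-like cells. The cells of this split come from 1 library and are not replicates.

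The genes whose levels followed each of the 10 most closely over the 44 sums of a class and a library are given as a description. The points share libraries and depth. Fgf7 and Fgf10 followed each other at a Pearson correlation of 0.949 on log2(CPM + 5), the highest of any pair among the 10. Closest to Fgf7 were Ism1 (0.959), Srpx2 (0.956) and D430019H16Rik (0.954), and to Fgf10 Dpep1 (0.962), D430019H16Rik (0.959) and Ism1 (0.952). Fgfr1 was closest to Mmp14 (0.905), P3h3 (0.893) and Plekha4 (0.861), and Fgfr2 to Fat1 (0.867), Atp11a (0.844) and Mecom (0.838).

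Among the genes closest to Etv5 were Sp5 (0.843) and Snx22 (0.837), and its correlation with Fgfr2 was 0.528. Among the Sprouty genes, Spry1 had Pard3 (0.844) and Ube2e2 (0.804) among its closest genes, Spry2 was closest to Serpinb9 (0.723), Rab27b (0.700) and Camk2n1 (0.697), and Spry4 to Ptprg (0.914), Cdc42ep1 (0.912) and Tmem204 (0.912). Dusp6 was closest to Dgkh (0.795), Rps6ka2 (0.773) and Ets2 (0.771). Etv4, with 26 UMIs in these classes, was closest to Tnc (0.671), Sel1l3 (0.632) and Postn (0.619), values that rest on too few UMIs to read. No feedback gene had another of the 10 among its closest 3.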

How the data were processed

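Libraries were made with the Chromium 3' v3 kit from pooled lung cells, per the labels' protocols. The authors deposited raw counts: whole numbers of UMIs for each gene in each barcode, with no normalization seen in the values. Cell Ranger 3.1.0, STAR and the build mm10 are named in the submitters' processing notes, and 3.0.0 is the software version in the matrix header. Annotation, filters and cell calling: not given in the sources used here. The deposited files held 16821 Cre and 13587 control barcodes with 81598779 and 74219499 UMIs, none under 500 UMIs.

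Barcodes with under 200 genes (1035 Cre, 86 control), with over 20% mitochondrial UMIs (686 and 643) or called doublets by Scrublet in scanpy 1.11.5 (411, or 2.44%, and 427, or 3.14%) were removed. Each cell was scored for 31 classes as the mean level of the class's markers, each scaled to its 99th percentile. It was assigned where the score was at least 0.2, led the next class by 0.1 or more and rested on 3 or more markers with a UMI. This left 18.3% of Cre and 13.4% of control cells without a class, and 7 Cre and 6 control AT2-like cells lay near the limit. This scoring and the grouping into lineages were set after seeing the data. Raw counts were summed per class and library, as CPM with exact Poisson intervals. Ratios have exact conditional intervals, shares exact binomial (Clopper-Pearson) ones, and the limit for a count of 0 is 3 counts. With 1 library per genotype no count model or p-value was used. The recovery of known 3-fold changes by the ratio was tested on simulated data.

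The 10 genes and the lists were chosen with earlier results of these data known. From the lists, genes past 1.5-fold with 50 or more UMIs and 20 or more CPM were named, up to 8 per direction in AT2-like cells and up to 3 in alveolar fibroblast-like, AT1-like and club-like cells, ranked by the bound of the interval nearest the median. The 3 genes closest to each were taken among 12888 genes with 200 or more UMIs. Alternatives were 10% mitochondrial UMIs, doublets kept, Leiden clusters, a lead of 0.2, cells thinned to 1000 UMIs, limits of 20 or 1 UMIs, no centring and 2-fold. Some genes that the rule for the closest genes picked are not reported here.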

Additional observations from a re-analysis of the deposited data

How the results depend on the processing

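No paired analysis was possible because each genotype has 1 pooled library, and no replicate could be left out. No value changed direction past its limit, and Spry1 in mesothelial-like cells gave no ratio at 1000 UMIs per cell because control was at 0. In AT2-like cells the count of the 10 genes called higher was 0, and became 1 with doublets kept, 1 with genes of 1 or more UMIs and 2 with the ratio read against 1. The count called lower was 1, Etv5, and became 0 at 1000 UMIs per cell, 0 against 1 and 0 at 2-fold. List genes called higher numbered 6, and 3 at 1000 UMIs, 15 with 1 or more UMIs, 13 against 1 and 3 at 2-fold. Those called lower numbered 2, and 4 with doublets kept, 4 with 20 or more UMIs, 9 with 1 or more UMIs, 1 against 1 and 1 at 2-fold. For limits against 1 and 2-fold the rule itself moves the count; for the others the cause was not tested. The Fgfr1 ratio in AT2-like cells, 1.70, was 1.25 with clusters and 0.952 at 1000 UMIs per cell, and those of Fgfr2, Etv5 and Spry4 at 1000 UMIs were 1.19, 0.795 and 1.11. At 1000 UMIs Fgfr1 was seen in only 11 Cre and 10 control AT2-like cells, and Spry4 in 7 and 5. Of the other values, 205 moved by less than counting error and 34 by more. Few UMIs limit Etv4 in every class, AT1-like cells had medians of 1007 UMIs in Cre and 963 in control, and smooth muscle-like cells numbered 65 and 61.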

Other observations

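Classes under 50 cells in a library were left out of the comparisons, and some held high levels. Myofibroblast-like cells, 63 in the Cre library and 43 in control, had Spry1 at 470 CPM in Cre and 591 CPM in control (86 and 81 UMIs), above the level of every class compared in its own library. The same cells had Fgf7 at 142 CPM in Cre and 190 CPM in control (26 UMIs each), and Fgf10 at 71.1 and 29.2 CPM from 13 and 4 UMIs. Neuroendocrine-like cells, 16 in Cre and 8 in control, had Dusp6 at 239 CPM in Cre and 154 CPM in control (29 and 11 UMIs) and Spry1 at 132 and 14.0 CPM (16 UMIs and 1 UMI). Their 8 Etv4 UMIs in the Cre library amount to 66.1 CPM (28.5 to 130), against 0 UMIs in control. In AT2-like cells Il17rd, another membrane inhibitor of FGF signalling, had 23 UMIs in Cre and 2 in control (ratio 10.8, 2.68 to 94.8), a gene chosen here after its values were seen.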
